A study of Mus musculus with 4 samples.

Results

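TIGIT+ effector CD8+ T cells (TIGIT+ Teff) were the cells that the authors' cell table names as that cluster, 1 of 8 clusters of CD8+ T cells from mouse BM. Cells were chosen by this name, matched to the counts by barcode, and 816 of 11754 cells carried it. They were 436 of 4237 cells in library 1 (10.3%, 95% Clopper-Pearson interval 9.39% to 11.2%), 50 of 2003 in library 2 (2.5%, 1.86% to 3.28%), 271 of 1725 in library 3 (15.7%, 14.0% to 17.5%) and 59 of 3789 in library 4 (1.56%, 1.19% to 2.0%). The cluster was thus scarce in libraries 2 and 4, where each of its values rests on few cells, 438569 UMIs in library 2 and 573858 in library 4 against 3501343 and 1904390 in libraries 1 and 3. All intervals cover counting error only. A UMI (unique molecular identifier) stands for 1 captured RNA molecule.

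The cells came from myeloma-bearing female adult mice on a C57BL/6 background, WT or transgenic for CRBN, a modified cereblon through which lenalidomide can degrade Ikaros and Aiolos. All mice received BM and T cell grafts from genetically matched donors. Mice were given TIGIT inhibition with vehicle, isotype control with lenalidomide, TIGIT inhibition with lenalidomide, or isotype control with vehicle, the antibody from the day of SCT and lenalidomide from day 14 until harvest on day 28. Each group was 1 library of CD8+ T cells sorted from the BM of 5 pooled mice, and the files number the libraries 1 to 4 without naming a treatment. No value is therefore assigned to a treatment or a genotype, no p-value is given since the clusters were formed from these same counts, and results are shown as values or ranges over the 4 libraries, which differ in treatment, or as sums where stated.

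TIGIT is an inhibitory receptor of activated T and NK cells. It shares its ligands, the poliovirus receptor and nectins, with CD226 (DNAM-1), which costimulates, and with CD96, and it can impair signalling through CD226. Effector CD8+ T cells kill through perforin and granzymes, reach tissue through integrins such as α4, and after long stimulation take up inhibitory receptors such as PD-1, TIM-3 and LAG-3. Within a nucleus, unspliced transcripts and some noncoding RNAs such as Malat1 are retained, while mRNAs of ribosomal proteins are short and abundant in the cytoplasm.

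The gene that names the cluster did not set it apart from every other Teff and Tex cluster. Levels are CPM, a gene's UMIs per 1000000 UMIs summed over the cells of a cluster in a library. Tigit (chr16:43648867-43664146, GRCm38) stood at 334, 388, 243 and 359 CPM in libraries 1 to 4. TIM-3+ Tex had 584, 516, 550 and 574 CPM and was above TIGIT+ Teff in every library, with no overlap. Transitory Teff had 289, 287, 242 and 431 CPM and overlapped TIGIT+ Teff. Tn had 11.2 to 17.6 CPM, so against naive cells the label held. After each cell was thinned to 2500 UMIs, 47.8% of TIGIT+ Teff cells had a Tigit UMI (44.3% to 51.3%, 70.1% without thinning), between 40.7% and 52.0% in the libraries. TIM-3+ Tex had 73.5%, transitory Teff 49.4%, cycling cells 42.4% and GzmA+ Tex 41.9%. GzmB+ Teff had 24.0% and Tn 3.5%, the latter taken as the background level (median 7834 UMIs per cell against 6047 in TIGIT+ Teff).

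The markers given with the cluster were higher in it, with a different extent in each library. Itga4 (integrin α4, chr2:79255426-79333123) had 1282, 946, 1646 and 931 CPM against 476, 426, 487 and 393 CPM in the reference, the unweighted mean of transitory Teff, GzmB+ Teff, TIM-3+ Tex and GzmA+ Tex within the library. The activating receptor Cd226 had 215, 137, 377 and 138 CPM, while no other cluster exceeded 220 CPM in any library. Atxn1, a transcriptional corepressor, had 195, 153, 248 and 71.5 CPM, and Hip1, an endocytic adaptor, had 156, 160, 211 and 81.9 CPM. These 4 genes were highest in TIGIT+ Teff among the 8 clusters in every library, and library 4 gave the lowest Itga4, Atxn1 and Hip1. Prf1 (perforin) had 216, 310, 243 and 112 CPM and was highest in libraries 1 and 2 only, with TIM-3+ Tex above it in libraries 3 and 4. A Cd226 UMI was found in 44.1% of thinned cells (40.7% to 47.6%), being 39.7%, 32%, 56.8% and 28.8% in libraries 1 to 4. Summed over libraries, the other clusters had 13.9% (Tn) to 27.3% (Tcm). In libraries 1 to 3 no other cluster reached the share of TIGIT+ Teff, although cycling cells had 45.8% in library 3, and in library 4 Tcm had 29.3%. These markers come from the same cells that were clustered, so their height describes the cluster and is no test of it.

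**Figure D1:**
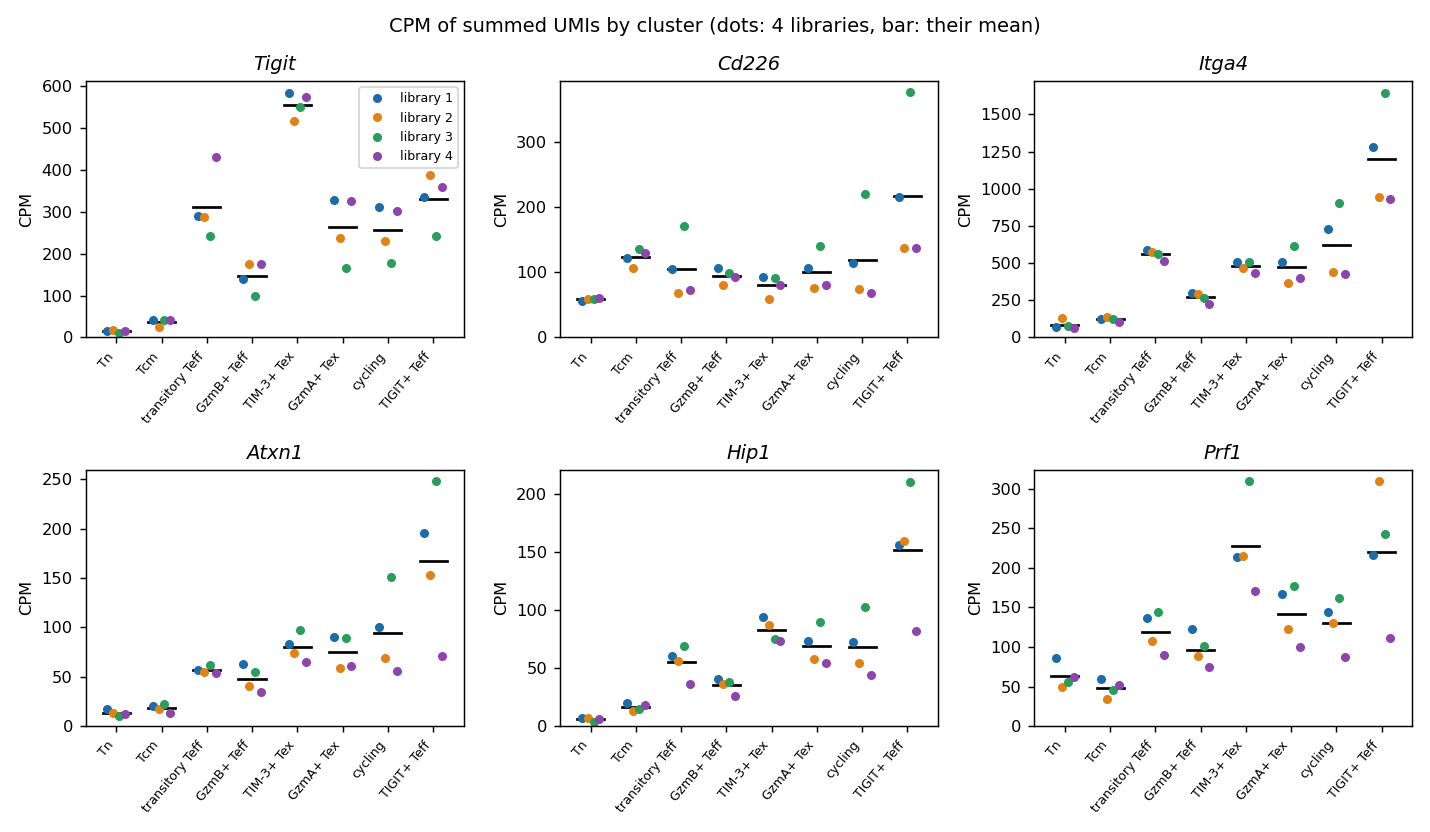
CPM of summed UMIs for Tigit and the 5 markers in each of the 8 clusters; dots are the 4 libraries and bars their mean. Tigit is highest in TIM-3+ Tex in every library, while Itga4, Atxn1, Hip1 and Cd226 are highest in TIGIT+ Teff in every library.

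Of 17561 genes, 6010 reached a mean of 20 CPM over the cluster and its reference and were counted. Ratios are log2((CPM + 10) / (reference CPM + 10)), averaged over libraries, which understates the ratio of low genes. The median over all genes counted was 0.19. Ratios of at least 2-fold in every library were found for 32 higher genes (0.532% of those counted) and 10 lower genes (0.166%). The 32 higher genes were long. Their median genomic length, the span of the gene in the annotation, was 112606 bases against 23350 for all genes counted, and 28 spanned at least 50 kb. Their median coding length was 6347 bases (30 genes with one) against 1269. Fosb alone was shorter than 20 kb.

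The ratio followed gene length over the whole table. In the shortest bin, 722 genes under 5 kb, the median log2 ratio was -0.19, -0.17, -0.24 and -0.19 in libraries 1 to 4. It was 0.29, 0.30, 0.38 and 0.17 for the 1718 genes of 20 to 50 kb and 0.56, 0.54, 0.69 and 0.42 for the 927 genes of 50 to 100 kb. Among the 478 genes of 100 to 200 kb it reached 0.67, 0.66, 0.83 and 0.53. Every library showed this order, steepest in library 3 and shallowest in library 4. Whether intronic reads were counted is not given in the sources used here, so the levels of long genes may include unspliced RNA. Spearman's rho across genes was 0.54 to 0.64 in the libraries, given as a description since genes are not independent and share libraries and depth. The other clusters were flatter. In the bin of 100 to 200 kb, their means against the remaining Teff and Tex clusters lay between -0.22 (Tn) and 0.09 (cycling cells), with 0.32 for cycling cells in library 3 as the highest single value. Set against each other cluster by itself, TIGIT+ Teff had a mean of 0.60 (cycling cells) to 0.92 (Tn) in this bin.

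Genomic span and coding length each went with the ratio when the other was held within a class. Among genes whose coding transcript spans 30 to 100 kb, the median log2 ratio was -0.03 for 69 genes with under 600 coding bases, 0.44 for 673 genes with 1200 to 2400 and 0.86 for 147 genes with at least 4800. Among genes with 1200 to 2400 coding bases it was 0.07 for the 309 genes spanning under 10 kb and 0.59 for the 153 spanning at least 100 kb. The corners were thinly filled, with 7 genes of the longest span and shortest coding sequence (-0.03) and 1 gene of the reverse kind.

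**Figure D2:**
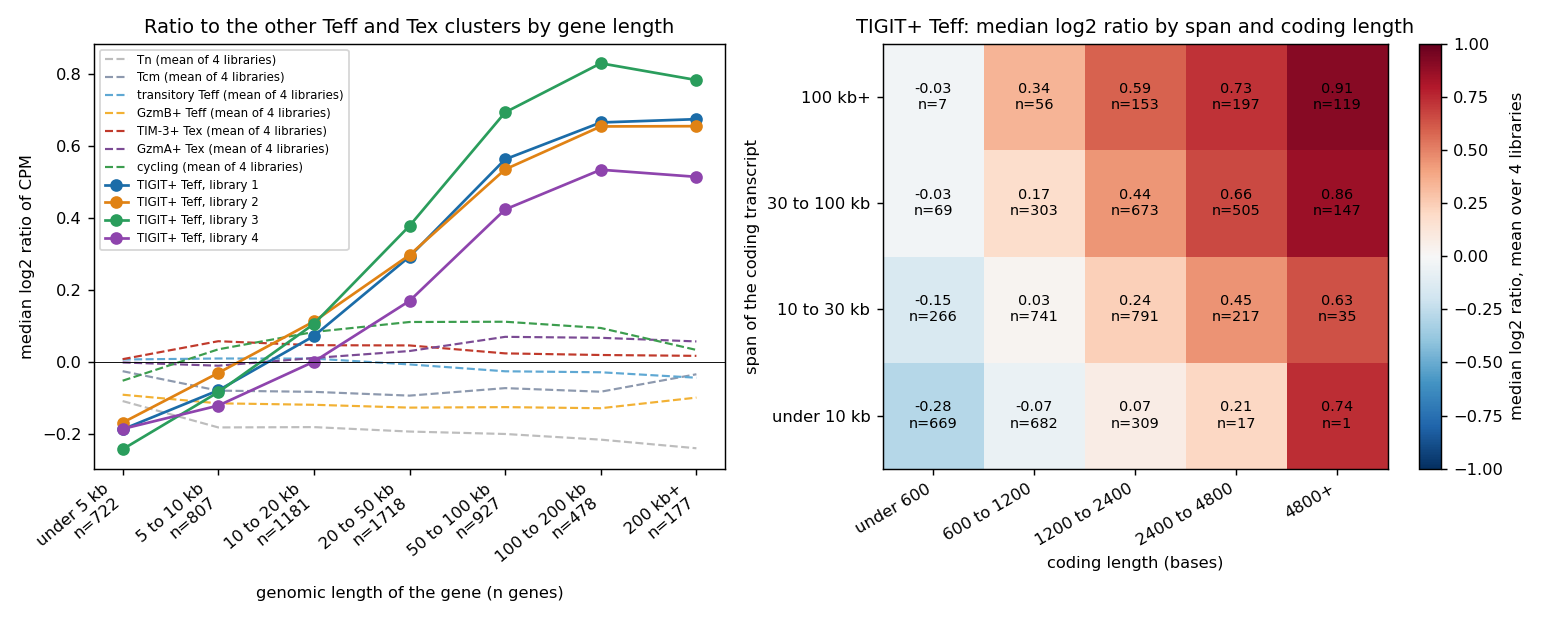
Left, median log2 ratio of CPM by bin of genomic length, for TIGIT+ Teff in each library (solid) and the other clusters as means of 4 libraries (dashed), each against the other Teff and Tex clusters. Right, median log2 ratio of TIGIT+ Teff by span of the coding transcript and coding length; the ratio goes from -0.28 for short genes with short coding sequences to 0.91 for long genes with long ones.

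The genes with the highest ratios included a cytoskeletal crosslinker, a scaffold, a chromatin enzyme, an integrin and noncoding RNAs. Macf1 (chr4:123349633-123684360), which crosslinks actin and microtubules, had 403, 349, 487 and 338 CPM against 137, 132, 140 and 131 in the reference, a mean log2 ratio of 1.46 (1.30 to 1.73 over the 4 libraries). Ahnak (chr19:8989284-9076914), a giant scaffold protein of the cell cortex, had 894, 657, 1420 and 709 CPM, a mean log2 ratio of 1.40 (1.08 to 1.73). Kmt2a (chr9:44803355-44881296), a histone H3 lysine methyltransferase, had 316, 280, 434 and 247 CPM, a mean log2 ratio of 1.39 (1.13 to 1.66). None of these overlapped its reference in any library. The noncoding RNA Kcnq1ot1 (chr7:143203458-143296549) had 143, 162, 124 and 118 CPM against 39.0 to 46.4, a mean log2 ratio of 1.49 (1.27 to 1.80). It lies antisense within Kcnq1, and whether the counting used strand is not given in the sources used here. Itga4 had a mean log2 ratio of 1.38 (1.13 to 1.74). Lncpint, a long noncoding RNA, had 1.37, St8sia4, a polysialyltransferase, 1.34, and Gabpb2, a subunit of the GABP transcription factor, 1.33. Mki67, the proliferation marker Ki-67, had 159, 93.5, 201 and 55.8 CPM, a mean log2 ratio of 1.35 (0.74 to 1.79), and its level in cycling cells was 436 to 1633 CPM.

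Since genomic length went with the ratio, each gene was next compared with the 200 genes nearest to it in genomic length. The difference was at least 2-fold in every library for 2 higher genes (0.0333%) and 9 lower genes (0.15%). Coding length was not held in this comparison, although its rho with the ratio was higher, 0.61 to 0.73 in the libraries against 0.54 to 0.64. Against genes of similar coding length, 3 genes were higher and 11 lower by the same threshold. All 32 genes at least 2-fold higher were above genes of similar genomic length by 0.40 to 1.5 on the log2 scale, but only Fosb by 2-fold. That all were above was set by their selection. No bin of length had a median log2 ratio over 0.83 in any library. Fosb (chr7:19302696-19310051), an AP-1 immediate early gene, had 90.8, 109, 158 and 138 CPM against 32.9, 36.4, 43.1 and 42.0. Its difference beyond length was 1.5 on the log2 scale (1.29 to 1.74), and TIGIT+ Teff was the highest of the 8 clusters in every library. The second was Gm26917, a noncoding RNA, at 423, 306, 328 and 281 CPM and a difference of 1.17. Fgl2, a secreted fibrinogen-like immunoregulatory protein, had 177, 146, 224 and 73.2 CPM and a difference of 1.2, with 0.62 in library 4. Malat1 (chr19:5795690-5802672), a nuclear-retained RNA, had 6229, 5064, 8027 and 4904 CPM against 3197, 2660, 3544 and 2682, a difference of 1.04. No library of another cluster exceeded 3812 CPM of Malat1. Mki67 had a difference of 1.12, but of 0.47 when set against genes of similar coding length.

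With the marker genes held against genes of similar length, less remained for Itga4, Atxn1, Hip1 and Cd226, but not for Prf1. With 1 library left out at a time, Prf1 had a log2 ratio of 0.28 to 0.65 before this comparison and 0.40 to 0.71 after it. The difference was 0.78 for Itga4, 0.58 for Prf1, 0.48 for Atxn1, 0.48 for Hip1 and 0.39 for Cd226. All but Atxn1 lay above 0 in every library, and Atxn1 was at -0.15 in library 4. Tigit had a log2 ratio of 0.04 and a difference beyond length of -0.09, from -0.31 to 0.18. The reference for these values includes TIM-3+ Tex, which had more Tigit in every library. On the TIGIT axis, 7 of 11 genes were counted. Cd226 and Pvrig, an inhibitory receptor of nectin-2, were above genes of similar length in every library, and Grb2 was below. Over all genes counted 24.8% were above and 25.4% below in this way, whatever the size of the difference. Cd96 had 173, 121, 191 and 146 CPM, the highest of the 8 clusters in every library, and a difference of -0.07 beyond length. Grb2 and Inpp5d, adaptor and phosphatase of the TIGIT tail, had differences of -0.19 and 0.03. Nectin2 and Nectin3 had no UMI in the cluster, which allows levels of up to 0.467 CPM (3 counts of 6418160 UMIs).

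The genes that were lower carried the signatures of other clusters in the reference. Isg15, a ubiquitin-like interferon-stimulated protein, had 50.6, 119, 95 and 48.8 CPM against 349, 337, 299 and 331. GzmB+ Teff had 961 to 1150 CPM of Isg15, and each of the remaining clusters had under 120 CPM in every library. Of 15 type I interferon genes counted, 14 were below genes of similar length in every library, among them Ifit1, Ifit3 and Usp18 with log2 ratios of -1.66, -1.70 and -1.52. The summed level of the list was 1642 to 2098 CPM in TIGIT+ Teff, 6691 to 7268 in GzmB+ Teff and 1687 to 1937 in TIM-3+ Tex. Against TIM-3+ Tex alone the list's median turned to 0.24, and the low ratio thus depended on GzmB+ Teff in the reference.

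Likewise, Cd74, the invariant chain of antigen-presenting cells, had 25.1, 27.4, 23.6 and 13.9 CPM against 148, 113, 107 and 131. GzmA+ Tex had 387 to 560 CPM of Cd74, and no other cluster was above 41.3. Apoe and C1qb, both abundant in macrophages, had log2 ratios of -1.72 and -1.62. The 14 listed macrophage and dendritic cell genes, 7 of 8 counted ones below genes of similar length in every library, summed to 80.2 to 140 CPM in TIGIT+ Teff. They summed to 1474 to 2274 CPM in GzmA+ Tex and 90.7 to 154 in cycling cells. In transitory Teff, GzmB+ Teff and TIM-3+ Tex they summed to 48.3 to 81.8 CPM, below TIGIT+ Teff in every library, so the low ratio goes with GzmA+ Tex in the reference. The other lists of foreign cells were as follows. The 12 neutrophil and progenitor genes summed to 3.49 to 23.6 CPM with 5 at 0, and the 6 CD4 T cell genes to 17.3 to 38.3 with 2 at 0. The 12 B cell and plasma cell genes summed to 126 to 187 CPM, with 3 at 0, and 11 erythroid and platelet genes to 38.3 to 61.0 with 2 at 0. The 10 NK cell genes, several of which CD8+ effector cells also express, summed to 702 to 985 CPM with Klra4 at 0. Their part in the results was not tested.

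Gene groups were described by members above or below genes of similar genomic length in every library, to be read against 24.8% and 25.4% of all genes. Coding length was not held, and its part in these counts was not tested. Of the integrins and adhesion genes 9 of 12 were above and 0 below, with library medians of 0.21 to 0.44. Itgb1 (integrin β1), the partner of α4, had 499, 401, 720 and 544 CPM, a log2 ratio of 1.2 and a difference of 0.73. Itgal (the α chain of LFA-1) had 421, 417, 630 and 432 CPM, a log2 ratio of 1.09 and a difference of 0.71. No other cluster reached these levels of Itgal. Among homing receptors 5 of 9 were above, including Cxcr3 (difference 0.66) and Cxcr6 (0.45), which guide effector cells to inflamed tissue, and Cx3cr1 was the 1 below. Of the cytokine, chemokine and death ligand genes, 5 of 11 were above and 0 below, led by Csf1 (0.93), the macrophage growth factor, and Tnfsf10 (TRAIL, 0.75). This list was not raised as a whole, with a median log2 ratio of -0.07 before the comparison by length. Its summed level was 22375, 26910, 18588 and 22849 CPM against 27210, 25771, 28011 and 26129 in the reference.

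Inhibitory receptors and exhaustion regulators differed among themselves. Havcr2 (TIM-3) had 84.3, 95.8, 74.6 and 47.0 CPM, a difference of 0.56, and TIM-3+ Tex had 73.3 to 100 CPM, so the clusters overlapped. Pdcd1 (PD-1) had 367, 399, 266 and 324 CPM with a difference of 0.16, and TIM-3+ Tex had 474 to 541. Lag3 had a log2 ratio of 0.00. In all, 3 of 10 inhibitory receptors were above and 1 below. Before the comparison by length, the whole list summed to 1581 to 1993 CPM in TIGIT+ Teff and 2008 to 2472 in TIM-3+ Tex. The other clusters had lower sums than TIGIT+ Teff in every library. Among exhaustion regulators 4 of 13 were above, including Bhlhe40 (0.71) and Eomes (0.55), and 2 below. That list summed to 1868 to 2257 CPM in TIGIT+ Teff and 1902 to 2228 in TIM-3+ Tex, with lower sums in the other clusters in every library. Tox, the factor that establishes exhaustion, had a log2 ratio of 0.53 and a difference beyond length of -0.13. Of 14 stemness and memory genes 1 was above and 5 below, with Il7r at -0.60 and Tcf7, which encodes TCF1, at 0.00. Against TIM-3+ Tex alone the list medians turned, to 0.84 for stemness and memory genes and to -0.30 for exhaustion regulators. Cytotoxic granule genes showed no common direction, with 3 of 15 above and 2 below. Gzma had 1017, 451, 233 and 352 CPM and Gzmb had 476, 408, 813 and 312 CPM, so library 1 was highest for Gzma and library 3 for Gzmb.

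Mitochondrially encoded, noncoding and ribosomal protein transcripts also lay apart from genes of similar length. All 13 mitochondrially encoded genes were above genes of similar length in every library, with library medians of 0.81 to 0.95. The cytochrome c oxidase subunit mt-Co1 had 6354, 6409, 6923 and 6385 CPM, while the highest value in another cluster was 4911. Noncoding RNAs listed as nuclear-retained had 5 of 7 above and medians of 0.61 to 0.74. That list also names Gas5 and Snhg1, and the place of these RNAs in the cell was not measured. Chromatin and nuclear regulators had 13 of 22 above, with medians of 0.27 to 0.46. In the opposite direction, 50 of 81 cytosolic ribosomal protein genes were below and 0 above. They summed to 203510, 238042, 182638 and 252493 CPM, compared with 248346 to 338474 in the other Teff and Tex clusters. Cycling cells had a similarly low sum, 210785, 252609, 186763 and 235490 CPM, lower than TIGIT+ Teff in library 4. Nuclear genes of oxidative phosphorylation, unlike the mitochondrially encoded ones, were below for 23 of 31 and above for 0. Immediate early genes were above for 11 of 15, DNA replication genes for 7 of 14 and splicing genes for 14 of 23. For the immediate early list the median log2 ratio before the comparison by length was 0.06. Its mean sum over libraries was 3969 CPM in TIGIT+ Teff and 4303 CPM in Tcm.

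**Figure D3:**
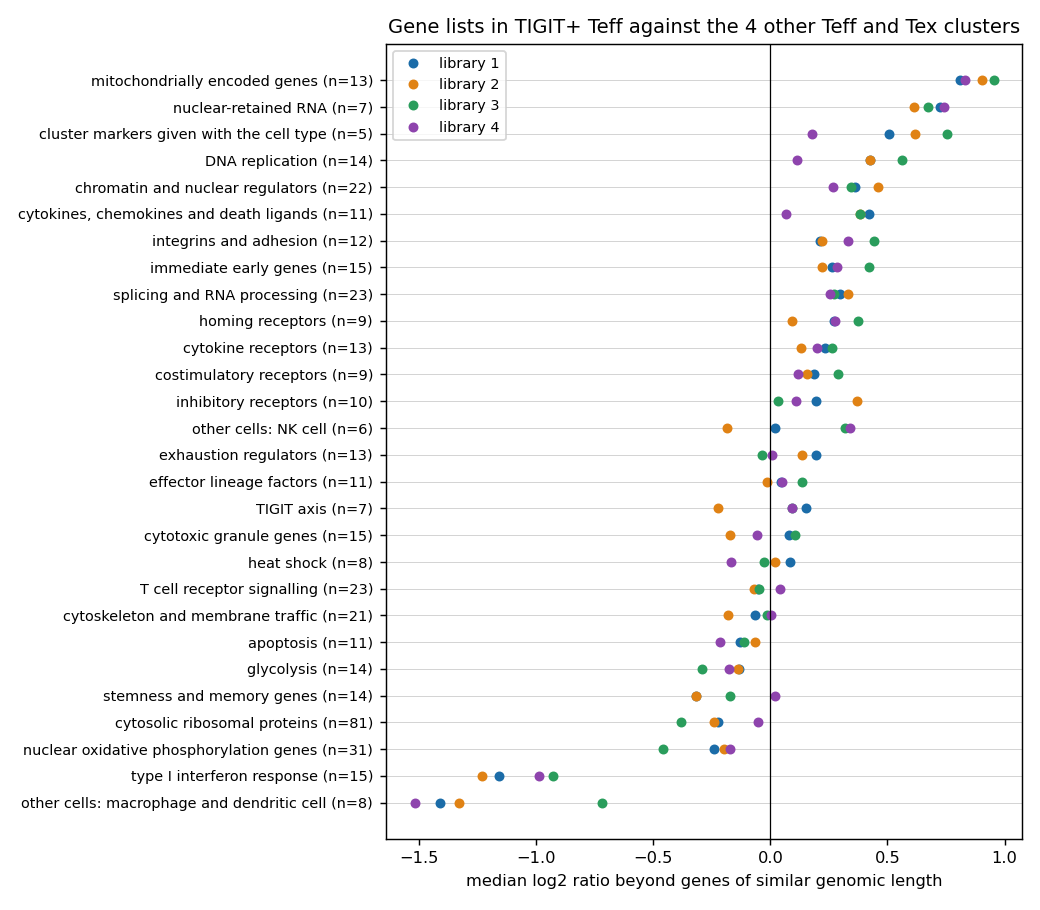
Median log2 ratio beyond genes of similar genomic length for each gene list, 1 dot per library, with the number of genes counted. Mitochondrially encoded genes lie at 0.81 to 0.95 and type I interferon genes at -1.23 to -0.93 in the 4 libraries.

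Cell by cell, the share of UMIs from genes of 100 kb and over was higher in TIGIT+ Teff than in other clusters, and it varied widely inside the cluster. After thinning to 2500 UMIs, the median was 7.70%, 6.52%, 10.1% and 5.92% in libraries 1 to 4, while it was 3.32% to 5.32% in the other clusters. At least 10% was reached by 319 of the 816 cells (39.1%), being 157, 13, 138 and 11 cells in libraries 1 to 4. Such cells made up 11.4% of cycling cells (219), and 8 GzmA+ Tex, 4 GzmB+ Teff, 1 Tcm and 0 TIM-3+ Tex cells. TIGIT+ Teff cells also had a higher mitochondrial share, with medians of 2.84% to 2.95% against 1.53% to 2.34% in the other clusters and libraries. As descriptions within the cluster and a library, Spearman's rho of the long-gene share was -0.76 to -0.67 with the UMI number. It was 0.47 to 0.59 with the mitochondrial share and -0.89 to -0.78 with the ribosomal protein share. The long-gene and ribosomal protein shares are parts of the same UMI total, so a negative rho between them is partly arithmetic.

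**Figure D4:**
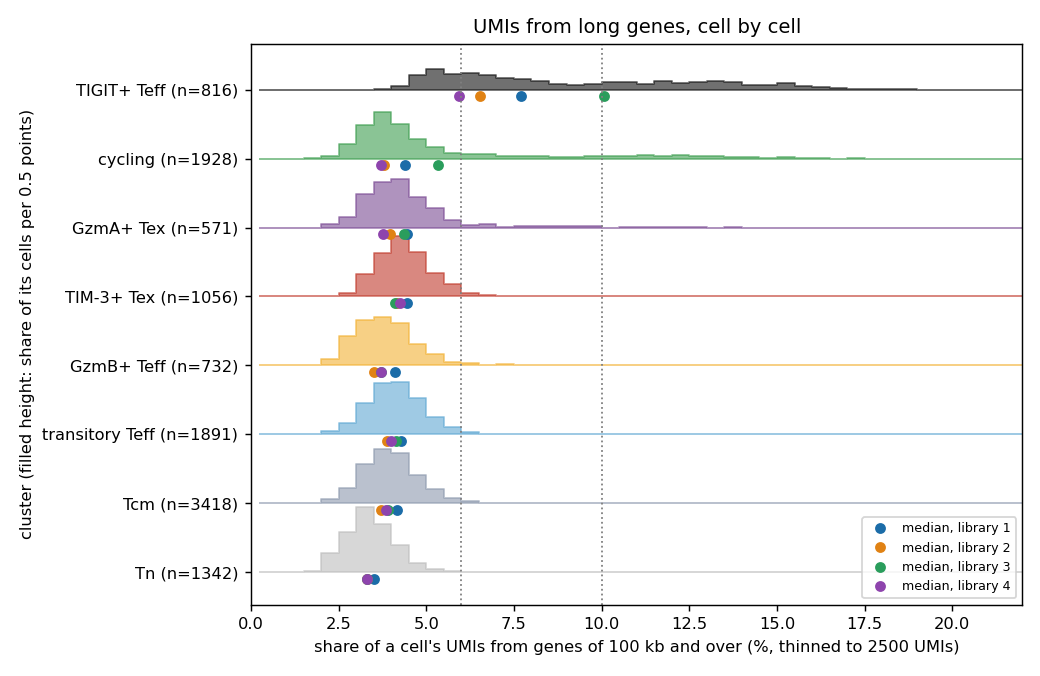
Distribution over cells of the share of UMIs from genes of 100 kb and over (percent, each cell thinned to 2500 UMIs), per cluster, with dots for the library medians and dotted lines at 6% and 10%. TIGIT+ Teff extends from values shared with other clusters to above 15%, and cycling cells have a thin tail over the same values.

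The cluster was therefore described in 3 ranges of this share, which are cuts of a continuous measure and not types, with 122 cells within 0.5 points of the 6% cut and 51 within 0.5 points of the 10% cut. Under 6% lay 208 cells, with a median of 12837 UMIs, 2.23% mitochondrial and 26.2% ribosomal protein UMIs. Between 6% and 10% lay 289 cells, with 7641 UMIs, 2.62% and 19.6%. At 10% and over lay 319 cells, with 3171 UMIs, 4.46% and 5.12%. The cells rich in long genes were thus those with the fewest UMIs, most mitochondrial and least ribosomal protein RNA. The 219 cycling cells at 10% and over had a similar profile, with 4650 UMIs, 4.28% and 3.88%. In TIGIT+ Teff cells at 10% and over the median log2 ratio to the reference was -0.78 for genes under 5 kb and 1.45 for genes of at least 200 kb. The cells were picked by their long-gene share, so a gradient in this direction is built in. The part of RNA quality, nuclear RNA and depth in these differences was not tested.

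Itga4, Atxn1, Malat1 and Fosb went with the ranges in every library, and Tigit did not. Values are summed over the libraries, of which library 3 gives 138 of the 319 cells at 10% and over, and libraries 2 and 4 give 13 and 11. From the lowest to the highest range, Itga4 had 683, 1295 and 2911 CPM, Cd226 had 160, 232 and 497, and Atxn1 had 95.9, 199 and 423. Malat1 had 4341, 6300 and 12196 CPM and Fosb had 63.5, 99.7 and 271. Within libraries the same order held for Itga4, Atxn1, Malat1 and Fosb in all 4 and for Cd226 in 3, with 137, 140 and 137 CPM in library 4. Counts in library 4 were small. Atxn1 had 18 UMIs there under 6% and 12 between 6% and 10%, with overlapping intervals of 26.1 to 69.6 and 48.3 to 163 CPM. Atxn1, which spans over 100 kb, is itself counted in the share. Tigit had 268, 369 and 299 CPM, with Poisson intervals of 249 to 288, 346 to 394 and 269 to 331. It was highest in the middle range in libraries 1, 2 and 4, while library 3 had 225, 228 and 282 CPM. At 10% and over, Tigit had 97.1 CPM in library 2 and 110 in library 4, from 5 and 4 UMIs. Short effector transcripts differed among themselves. The chemokine Ccl5 had 20789, 19814 and 6200 CPM and the granule protein Nkg7 4025, 4029 and 2865, and both were lowest at 10% and over in every library. Gzmb had 402, 593 and 834, in the order of the markers in libraries 1 and 3 but not in library 2 (195, 897 and 369) or library 4 (340, 265 and 164). Actb and Cd3e had 11234, 11826 and 10950, and 1432, 1596 and 1332 CPM, and in these sums differed less than any of the long genes named.

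The share of cells with a TCR moved with these ranges as well. The TCR of the same cells was sequenced separately and was not used to form the clusters. A TCR was called in 364 TIGIT+ Teff cells (44.6%, 41.2% to 48.1%), being 37.8%, 40%, 56.1% and 45.8% in libraries 1 to 4. Tn had 85.5% and GzmA+ Tex 41.0%. In the cluster it was higher with the long-gene share, going from 21.2% under 6% to 34.3% and then 69.3% at 10% and over, the reverse of the UMI number. A pair of TRB chains was found in 45 of the 364 cells (12.4%). A clonotype was the authors' strict call, which joins the genes and CDR3 nucleotides of both chains, and clones were counted within a library over all clusters. Of the 364 cells, 62.9% (57.7% to 67.9%) belonged to clones of 2 or more cells and 34.6% to clones of more than 20. By range of the long-gene share, 65.9%, 58.6% and 64.3% were in clones of 2 or more, with overlapping intervals.

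Most cells of the cluster with a TCR belonged to clonotypes seen in other clusters too. It held 219 clonotypes, and 227 of the 364 cells (62.4%, 57.2% to 67.4%) had one that was also found in another cluster of the library. Of the 136 clonotypes found nowhere else, 1 had more than 1 cell. Transitory Teff shared 63 clonotypes, which were 28.8% of those in TIGIT+ Teff and 10.8% of its own. Cycling cells shared 61 (27.9% and 14.5%) and TIM-3+ Tex 33 (15.1% and 24.8%). GzmA+ Tex shared 27 (12.3% and 16.2%), GzmB+ Teff 26 (11.9% and 5.75%), and Tn and Tcm 5 and 4.

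The 6 TRB chains with the most cells in TIGIT+ Teff are given with the nucleotides of their CDR3, since they mark the clones in which its cells could be set against sister cells in other clusters. Capitals mark bases that match neither the V nor the J germline segment of the GENCODE M21 transcripts, lower case at the 5′ end matches V and at the 3′ end J.
Clone 1, library 3, TRBV26 and TRBJ2-1: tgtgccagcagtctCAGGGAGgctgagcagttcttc
Clone 2, library 3, TRBV16 and TRBJ1-4: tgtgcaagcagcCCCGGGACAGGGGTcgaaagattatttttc
Clone 3, library 1, TRBV1 and TRBJ2-1: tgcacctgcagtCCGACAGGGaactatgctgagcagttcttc
Clone 4, library 3, TRBV3 and TRBJ2-7: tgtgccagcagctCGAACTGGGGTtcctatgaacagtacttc
Clone 5, library 1, TRBV1 and TRBJ1-4: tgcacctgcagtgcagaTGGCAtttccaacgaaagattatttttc
Clone 6, library 1, TRBV3 and TRBJ2-2: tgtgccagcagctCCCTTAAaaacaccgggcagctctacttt

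Clones 1 to 6 put 26 of 113, 21 of 72, 15 of 185, 14 of 47, 13 of 91 and 13 of 94 cells into TIGIT+ Teff. Their junctions held 5 to 14 untemplated or D-derived bases. Clone 1 carried 4 TRA sequences, the commonest in 77 of 96 cells with a TRA chain, so it may hold more than 1 clone, and clones 2 to 6 carried 1 each. Clone 3 was also seen in 22 cells of other libraries and clone 5 in 12. The median long-gene share of the 6 clones was 10.1% to 12.1% in TIGIT+ Teff and 3.94% to 4.44% in transitory Teff. In cycling cells of these clones it was 4.18% to 11.1%, reaching that of TIGIT+ Teff in clone 2.

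**Figure D5:**
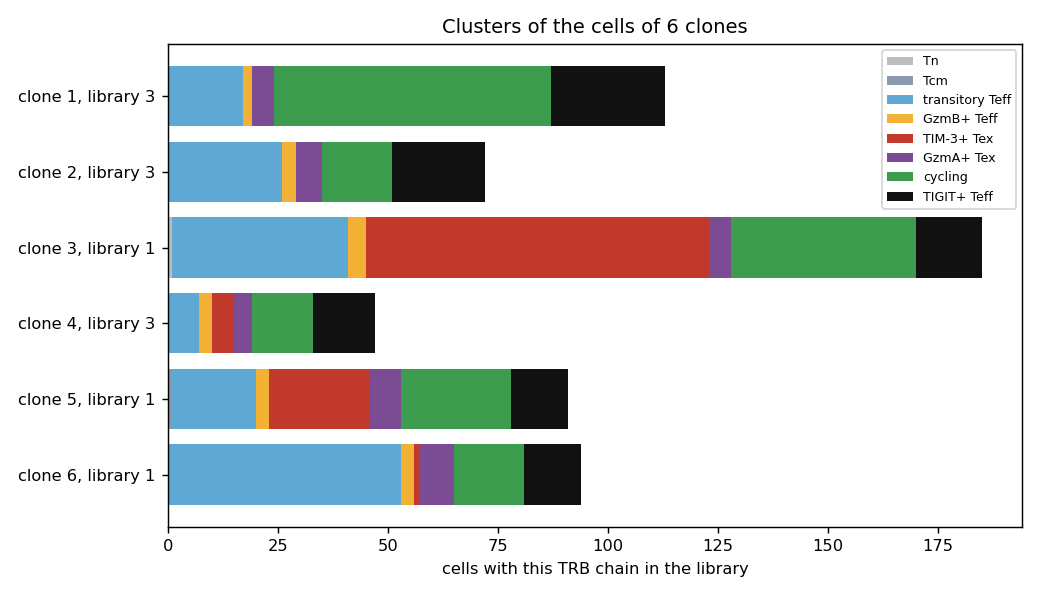
Number of cells carrying each of the 6 TRB chains in its library, stacked by cluster. Every one of the clones has TIGIT+ Teff cells (13 to 26) beside transitory Teff and cycling cells, and TIM-3+ Tex cells are numerous in clones 3 and 5 only.

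Cells of the same clonotypes differed by gene length between clusters. For clonotypes found in both TIGIT+ Teff and transitory Teff (28, 5, 16 and 14 in libraries 1 to 4), the median log2 ratio of genes of at least 100 kb exceeded that of genes under 10 kb by 1.25, 1.16, 1.34 and 1.03. Against TIM-3+ Tex of the same clonotypes (14, 5, 5 and 9) the difference was 1.28, 0.90, 1.56 and 0.89, and against cycling cells 1.09, 1.40, 0.87 and 1.2. Library 2 rests on 7 TIGIT+ Teff cells in each of these comparisons. Against TIM-3+ Tex, library 3 rests on 9 TIM-3+ Tex cells and library 4 on 12 TIGIT+ Teff cells. For all cells against the mean of the 4 other Teff and Tex clusters, another reference, the corresponding difference averaged 0.80. Itga4 was higher than in transitory Teff of the same clonotypes by 1.67, 0.74, 2.14 and 1.48 on the log2 scale. Cd226 was higher by 1.19, 1.86 and 1.03 in libraries 1 to 3 and lower in library 4 (-0.29). In library 4 it was also at -0.87 against TIM-3+ Tex and -0.04 against cycling cells of the same clonotypes. Tigit was lower than in TIM-3+ Tex of the same clonotypes in every library, with log2 ratios of -0.69, -1.17, -0.99 and -0.37. A cell enters this comparison only if its TCR was called, which occurred more often in cells with a high long-gene share.

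The counts of genes depended on how cells were combined, and the cause was not tested. In sums, a cell with few UMIs has little weight. With each cell thinned to 2500 UMIs 194 genes were at least 2-fold higher in every library, and with the mean of CPM per cell 225. Without library 4 the number was 117, and without the 319 cells at 10% and over it was 2, with a difference of 0.58 between genes of at least 100 kb and under 10 kb. Leaving out those cells was decided once the data had been examined. They were picked by their long-gene share, so a smaller difference without them is built in. By name, 796 of the 816 cells also carried the cluster number that the name goes with, and 14 of the other 20 had the number of TIM-3+ Tex. Barcode sequences shared between libraries concerned 12 cells of the cluster, and none of the 56 such pairs in the series had the same clonotype.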

How the data were processed

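The deposited expression table holds raw UMI counts, which the authors made with cellranger, downsampled across libraries and limited to cells with set UMI numbers, mitochondrial share and Cd3e/g and Cd8a expression. The submitters' processing notes name Cell Ranger 7.00 and mm10. Whether introns were counted is not given in the sources used here, and if they were, unspliced RNA enters the comparison by length. In the cell table the mitochondrial share is a fraction as the authors deposited it. Depth was 15556967 to 38440687 UMIs per library. No doublets were removed here.

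UMIs were summed per cluster and library, with 10 CPM added for ratios, a minimum mean of 20 CPM, and 200 neighbouring genes for similar length. Cells were thinned to 2500 UMIs with seed 7. Gene lengths came from GENCODE M21 (GRCm38). Intervals are 95% Poisson or Clopper-Pearson.

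The cluster, its markers and the gene lists were chosen with earlier results of these data known. Named genes were the given markers, the TIGIT axis, the 10 most extreme genes by each measure with at least 50 CPM and 1 sign in all libraries, and leading members of each list; others are named as examples of their list, for a call, or for their level in the 3 ranges, after their values were seen. Coding lengths, and the cells and references added as alternatives, were chosen after seeing the data. No test was run: clusters were formed from the same counts, and each treatment was 1 library of unknown number. On simulated data for TIGIT+ Teff against 4 clusters, 196 of 200 genes changed 4-fold among 5501 were recovered at the 2-fold threshold with 0 false calls. The length gradient was found as 0.47 where 0.51 was set. Counts were Poisson draws from 1 mean reference profile, and only genes of at least 50 CPM were changed. Variation among cells, libraries and reference clusters was left out. The simulation therefore checks the calculation and does not give the error rate of the calls made here. Tools were matplotlib 3.10.9, pandas 2.3.3, scipy 1.17.1, numpy 2.4.6 and Python 3.11.15.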

Additional observations from a re-analysis of the deposited data

How the results depend on the processing

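No paired analysis was possible because no result comes from a test, the clusters having been formed from the same counts, and each treatment has only 1 library. The number of genes at least 2-fold higher in every library (32), the numbers beyond genes of similar length (2 above, 9 below) and the difference between genes of at least 100 kb and under 10 kb (0.80) were 225, 24, 17 and 1.04 with the mean of CPM per cell, 194, 19, 19 and 1.06 with thinned cells, and 235, 28, 21 and 1.11 with 1 cell per clonotype. With 1 CPM added they were 125, 7, 16 and 0.96, and 56 genes were higher with UMIs of genes under 100 kb as the total. Without cells at 10% and over, a choice made by the long-gene share itself, 2 genes were higher and 0 above, with a difference of 0.58. The lower genes (10) were 6 with all 7 other clusters as reference or at least 50 CPM, and 0 against TIM-3+ Tex or against it with transitory Teff, while 0 and 1 were then below genes of similar length. Genes above similar length were 7 against TIM-3+ Tex, 0 by exonic length, and 1 with all 7 clusters, 5 CPM, names by number, 100 neighbours or the span of the coding transcript. The difference was 0.65 with at least 5 CPM and 0.94 with 50 CPM. Spearman's rho (mean 0.59) was 0.52 against TIM-3+ Tex, with 5 CPM and without cells at 10% and over, 0.53 with 1 cell per clonotype and 0.66 by coding length. Leaving out 1 library gave 33 to 117 higher genes (117 without library 4), 10 to 16 lower (16 without library 3), 2 to 5 above similar length (5 without library 4), 9 to 13 below and differences of 0.75 to 0.84.

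Several values with 1 sign in all 4 libraries turned. Against TIM-3+ Tex, Prf1 had a log2 ratio of -0.10 and -0.014 beyond length, inhibitory receptors a median of -0.40 and interferon genes 0.24. Against TIM-3+ Tex with transitory Teff the latter lists had -0.0085 and 0.30. Mitosis genes had -1.32 against all 7 clusters and -0.0030 with 5 CPM, and apoptosis genes 0.014 with 50 CPM. Other list medians turned too: stemness and memory genes (-0.20) to 0.84, exhaustion regulators (0.08) to -0.30 and effector lineage factors (0.06) to -0.11 against TIM-3+ Tex, while the TIGIT axis and cytotoxic granule genes kept their sign in 12 of 17 settings each. The median long-gene share (7.56% as a mean over libraries) was 17.5% for genes of 50 kb and 1.85% for 200 kb. Cells in clones of 2 or more (59.8% as an unweighted mean of the libraries, 62.9% pooled) were 71.6% by TRB alone. With at least 2 cells in each cluster, shared clonotypes per library were 0.25 with Tn, 6 with transitory Teff, 2.5 with GzmB+ Teff, 3.25 with TIM-3+ Tex and 6.75 with cycling cells. In the same clones the difference from transitory Teff was 1.5 with thinned cells (1.19 otherwise). The cause of these changes was not tested. The references and spans by coding length, and the cells left out, were chosen with the data in view. The 50 and 59 cells of libraries 2 and 4 limit the values there.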

Other observations

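Further gene groups of TIGIT+ Teff are given as members above or below genes of similar genomic length in every library, against 24.8% and 25.4% of all genes counted. Coding length was again not held. Among cytokine receptors 8 of 13 were above, such as Ifngr1 (mean log2 difference 0.46), Il2rb (0.42), Il12rb1 (0.39) and Il18rap (0.35), and Il7r alone was below. Costimulatory receptors were above for 5 of 9 and below for 0, among them Slamf1 (0.39) and Cd27 (0.25). Of 23 T cell receptor signalling genes 6 were above, such as Ptprc, which encodes CD45 (0.60), and Plcg1 (0.42). The 6 below included Cd247, the CD3 zeta chain (-0.67), and Skap1 (-0.58). Both counts were near the shares of all genes. Effector lineage factors were above for 3 of 11, near the share of all genes, with Ikzf1, which encodes Ikaros, at 0.27, and below for 1. Among cytoskeletal genes 6 of 21 were above, also near that share, including the exchange factors Dock10 (0.38), Dock8 (0.28) and Dock2 (0.27). Below were 9, including Arpc2 (-0.43) and Tmsb10 (-0.38).

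Glycolysis genes were below for 5 of 14 and above for 1, the glucose transporter Slc2a3 (0.37). Apoptosis genes were above for 2 of 11, Mcl1 (0.43) and Bcl2l11 (0.33), which encode a protector and a BH3-only killer, and below for 6, with Casp8 at -0.51. Heat shock genes were above for 1 of 8, Hsph1 (0.27), and below for 2. Among DNA replication genes Uhrf1 (0.76), Mcm4 (0.75) and Mcm5 (0.62) were above. Of 19 mitosis genes 3 were counted and Mki67 and Top2a (0.62) were above. The chromatin regulators Ep300 (0.63), Chd4 (0.62) and Dnmt1 (0.61) and the splicing kinase Clk1 (0.73) were among the members of their lists that were above.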
